A study of Schizosaccharomyces pombe with 87 samples.

Results

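The 14 retrotransposon records and 212 solo long terminal repeats (LTRs) of the deposited fission yeast annotation are described here, 226 of the 58359 records that the annotation holds. They are the records of type LTR_retrotransposon and long_terminal_repeat on chromosomes I, II and III. An LTR was taken as solo when it lay neither inside nor within 10 bp of a retrotransposon record, and the other 26 of the 238 LTRs were counted as LTRs of retrotransposons. The annotation belongs to a study of the heterochromatin marks H3K9me2 and H3K9me3 in Schizosaccharomyces pombe, profiled by chromatin immunoprecipitation and sequencing in 87 libraries from cells grown in YEA at 32C to log phase. The strains labelled ectopic were swi6-delta, swi6-delta mst2-delta, swi6-delta set1-delta, swi6-delta mst2-delta set1-delta, mst2-delta set1-delta, clr4-delta and WT, and those labelled endogenous were the first 4 of these and WT. The files used here are annotations with no value per library, so methylation over the elements was not analysed here, the genotypes were not compared, and everything below is a position, a length or a sequence.

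A retrotransposon of this kind is copied into RNA, reverse transcribed and inserted elsewhere in the genome, and it carries an identical LTR at each end when it arrives. Insertion copies a few bases of the target site, so that the same short sequence stands on both sides of the new element. Recombination between the LTRs of an element removes its inside and leaves a solo LTR behind. Tf2 is the retrotransposon family whose full-length copies are found in the laboratory strain, and Tf elements are known to insert before genes read by RNA polymerase II. Clr4, the H3K9 methyltransferase, and Swi6, an HP1 protein that binds the methylated histone, build heterochromatin, while Set1, the H3K4 methyltransferase, is known to repress Tf2 elements.

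The sequence of the commonest LTR is shown first because all others are measured against it. It is 349 bp long and stood in 12 exact copies, 8 in retrotransposons and 4 counted as solo. The copy shown is SPLTRA.29, the second LTR of the Tf2-1 element (RefSeq ASM294v3, I:1469899-1470247, plus strand), and its first 300 bases are set beside those of SPLTRA.90 (I:4715792-4716149, minus strand), the solo LTR of 358 bp most like the others of its length. Capitals mark the TGT at the start, the typical first bases of a retroviral or retrotransposon LTR.
SPLTRA.29: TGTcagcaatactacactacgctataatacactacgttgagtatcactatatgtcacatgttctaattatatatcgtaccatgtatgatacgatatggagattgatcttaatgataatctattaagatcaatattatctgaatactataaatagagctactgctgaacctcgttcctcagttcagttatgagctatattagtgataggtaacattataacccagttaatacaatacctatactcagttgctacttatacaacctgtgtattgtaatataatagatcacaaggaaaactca
SPLTRA.90: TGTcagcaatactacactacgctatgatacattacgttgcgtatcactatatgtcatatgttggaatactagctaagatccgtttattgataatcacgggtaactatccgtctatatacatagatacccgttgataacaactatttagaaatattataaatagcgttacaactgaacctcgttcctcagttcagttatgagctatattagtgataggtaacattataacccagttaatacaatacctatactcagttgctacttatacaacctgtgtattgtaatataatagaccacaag
SPLTRA.90 was 85.7% identical to the commonest LTR, and it averaged 98.1% identity to the other solo LTRs of 358 bp.

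The ends of single LTRs carry the trace of insertion, and they are shown with the 5 bases beyond the record in capitals. The outer ends of the Tf2-1 element, which are the left end of SPLTRA.28 (I:1465332-1465680, plus strand) and the right end of SPLTRA.29, had the same 5 bases outside them.
SPLTRA.28 left end: ATTTCtgtcagcaatactacactacgctat
SPLTRA.29 right end: cagataccaaactgcgtagcttacaATTTC
The solo LTR SPLTRA.77 (I:4941720-4942068, plus strand), an exact copy of the commonest LTR, and the 358-bp SPLTRA.90 also had equal flanks.
SPLTRA.77 left end: TTAAAtgtcagcaatactacactacgctat
SPLTRA.77 right end: cagataccaaactgcgtagcttacaTTAAA
SPLTRA.90 left end: TGTAGtgtcagcaatactacactacgctat
SPLTRA.90 right end: cagataccaaactgcgtagcttacaTGTAG
SPLTRB.8 (II:93517-93860, minus strand) had the inner sequence of a Tf LTR but unequal flanks, and its first bases differ from TGT.
SPLTRB.8 left end: GCATCtatcagcaacactacactacgctat
SPLTRB.8 right end: cagataccacacggcgaagctgacaATACT

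Of the 14 retrotransposon records, 12 held a gene named Tf2. Their lengths ran between 1731 and 5233 bp with a median of 4922 bp. The annotation has 13 Tf2 genes, 8 on chromosome I, 3 on II and 2 on III. The 2 records without a Tf2 gene were short: SPTF.4 on chromosome I had 2350 bp and SPTF.8 on chromosome III had 1731 bp. There were 2 LTRs within 10 bp of 12 records, and in 9 of these 12 the LTRs were identical over the length of the shorter one. Among these 9, the LTRs differed in length at Tf2-5 (343 and 349 bp) and at Tf2-8 (356 and 349 bp). The LTRs of Tf2-1 were 99.7% identical, those of Tf2-11 on chromosome II 83% and those of SPTF.4 78.3%. In 9 of the 12 the 5 bases outside the LTRs were equal, for example TGTTT at Tf2-3, GGAAT at Tf2-5, TTAAT at Tf2-9 and TCAGG at Tf2-13. Tf2-4 and Tf2-12, on different chromosomes, both had CTTAA. By record ends, the elements with unequal outer flanks were Tf2-11, SPTF.4 and the record that holds Tf2-8. The bases read before Tf2-11, TGTCA, and before SPTF.4, GTCAG, both occur in TGTCAG, the first bases of the commonest LTR. They may therefore belong to the LTR, and whether the target-site bases of Tf2-11 and SPTF.4 are equal cannot be judged from these records.

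The outlines of 2 records left LTRs of whole elements among the solo LTRs. The record of Tf2-2, SPTF.2, was 4046 bp long and ended 521 bp short of SPLTRA.31. SPLTRA.30 and SPLTRA.31 started 4567 bp apart, the spacing of the LTRs of Tf2-1, Tf2-3 and Tf2-5, were 99.4% identical, and had ATATT outside both. On chromosome I the LTRs SPLTRA.81, SPLTRA.82 and SPLTRA.83 were each 4567 bp from the next, with Tf2-7 between the first pair and Tf2-8 between the second. The record over Tf2-8 was 5233 bp long and covered 3.70% of Tf2-7, so SPLTRA.81 was counted as solo by the 10-bp rule. Seen as a pair of elements in tandem that share SPLTRA.82, the stretch was 9483 bp long and had CTTAT outside both ends. The record itself is written on the plus strand, whereas its LTRs and Tf2-8 are on the minus strand.

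The nearest mRNA start other than that of a Tf2 gene lay 34 to 2429 bp from the edges of the retrotransposon records, with a median of 288.5 bp. The nearest such mRNA end lay at a median of 1752 bp. A start was the nearer of the 2 for 10 of the 14 elements, and 12 of the 14 lay upstream of the gene whose start was nearest. By record edges, the 4 closest to a start were SPTF.4, Tf2-3, Tf2-1 and Tf2-6. SPTF.4 lay 34 bp from SPAPB2C8.01 and Tf2-3 47 bp from cao1, an amine oxidase gene. Tf2-1 lay 48 bp from brr2, which encodes an RNA helicase of the spliceosome, and Tf2-6 122 bp from mak2, a histidine kinase gene. Tf2-4 lay 140 bp from dhp1, an exoribonuclease gene, Tf2-9 180 bp from pib2, Tf2-13 194 bp from arz1 and Tf2-12 383 bp from rpb6, a subunit gene of the RNA polymerases. Tf2-10 lay 818 bp from knh4, the record of Tf2-2 953 bp from SPAC1705.02 and that of Tf2-5 1011 bp from SPAC27E2.01. The record of Tf2-8 lay 2429 bp from pyp2, a phosphatase gene. The record of Tf2-2 ends 521 bp short of SPLTRA.31, on the side of SPAC1705.02. That of Tf2-5 ends inside SPLTRA.63, on the side of SPAC27E2.01. These whole elements therefore lie closer to the starts named than their records do. Tf2-11, 1956 bp from the start of SPBC1289.14, and SPTF.8, 599 bp from that of SPCC794.16, were the 2 that lay on the downstream side. In the second deposited annotation, described below, the record Tf-fragment4 begins where SPTF.8 does after the shift of that block. It is 2330 bp long and reaches the start of SPCC794.16. The distance and side given for SPTF.8 therefore hold for the outline of its record only. The flanking genes other than Tf2 pointed away from each other at 8 elements, in the same direction at 6 and towards each other at 0.

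The retrotransposons lay at a median of 60353 bp from the nearest tRNA gene, against 36839 bp over all bases. Within 5 kb of one lay 0 of the 14, against 9.53% of all bases. The nearest was Tf2-9, 8519 bp from SPBTRNAPRO.04, and the farthest Tf2-11, 204070 bp from SPBTRNAASN.04. Tf2-9 was also the nearest to a centromere, at 167596 bp. The median distance to the centromere was 812976 bp over the 14, against 1023982 bp over all bases. The nearest solo LTR lay 68 bp away at the record of Tf2-8, 131 bp at Tf2-5 and 521 bp at Tf2-2, the last of which is the element's own second LTR as described above. At the other 11 elements it lay between 831 bp, at SPTF.8, and 85531 bp, at SPTF.4.

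Solo LTRs were denser on chromosome III than on the other chromosomes. Chromosome III held 74, or 30.2 per Mb, against 75 on I, 13.4 per Mb, and 63 on II, 13.9 per Mb. They covered 0.968% of the bases of III, 0.429% of those of I and 0.432% of those of II. Retrotransposons did not follow this order: I had 8, II 3 and III 3, which is 1.43, 0.660 and 1.22 per Mb. Protein-coding genes were spread more evenly, with 419, 410 and 373 per Mb on I, II and III, while tRNA genes stood at 10.04, 15.0 and 19.2 per Mb.

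**Figure D1:**
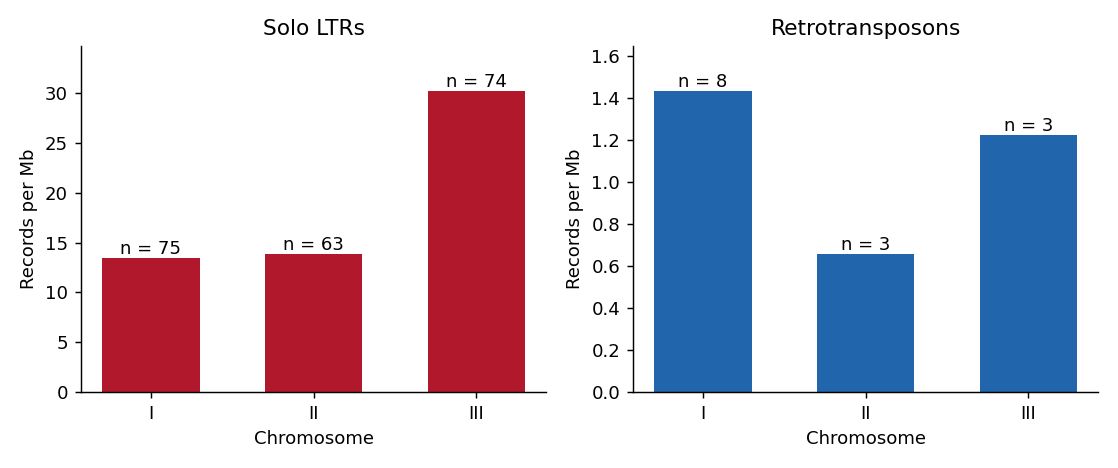
Records per Mb of chromosomes I, II and III, for solo LTRs (left, red) and retrotransposons (right, blue); bars start at 0 and the number of records stands above each. Solo LTRs reach 30.2 per Mb on III against 13.4 on I and 13.9 on II, while retrotransposons are most dense on I.

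Along the chromosomes the gap between neighbouring solo LTRs had a median of 43899 bp on I, 36867 bp on II and 18497 bp on III. Of 209 such gaps, 22 were at most 1000 bp. Among the 212 solo LTR records, 14 overlapped another solo LTR, and each is counted separately throughout. Merging overlapping or touching records of either strand left 205. The longest was 411948 bp on chromosome II, between SPLTRB.22 and SPLTRB.23. The densest windows of 100 kb were the first of chromosome I, with 12 solo LTRs, and the first of chromosome II, with 10. The next were a window of chromosome II (4400001 to 4500000) and a window of III (2100001 to 2200000) with 8 each, and this window of III also held 3 wtf genes. No solo LTR lay in 17 of 56 windows on I, 16 of 46 on II and 2 of 25 on III.

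Chromosome ends held more solo LTRs than their share of the bases. Within 100 kb of an end lay 44 of 212, or 20.8% (95% Wilson interval 15.8 to 26.7%, counting error only), against 4.77% of all bases and 11.4% of the bases outside mRNA records. None of the 14 retrotransposons lay that close, and the nearest, Tf2-11, was 120320 bp from the end of II. Several LTRs near ends were copies of each other. SPLTRA.3 and SPLTRB.2, at the left ends of I and II, were identical over 296 bp. SPLTRB.4 and SPLTRB.68, at opposite ends of II, were identical over the 332 bp aligned. SPLTRA.1, SPLTRA.89 and SPLTRB.69, at the left end of I, the right end of I and the right end of II, were at least 99.7% identical. Farther in on the left arm of II, SPLTRB.8, SPLTRB.9, SPLTRB.10 and SPLTRB.11 were 4 identical copies of 344 bp, each starting exactly 2759 bp after the one before, with the genes SPBPB10D8.05c, SPBPB10D8.06c and SPBPB10D8.07c between them.

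Centromeres held none. The nearest solo LTRs were SPLTRC.30 at 39246 bp from the centromere of III, SPLTRB.23 at 69466 bp from that of II and SPLTRA.59 at 134806 bp from that of I. Within 100 kb of a centromere lay 5 of 212 solo LTRs, or 2.36% (95% Wilson interval 1.01 to 5.40%), against 5.92% of all bases. Of the bases outside mRNA records, 9.975% lay that close. The median distance to the centromere was 1073445 bp for solo LTRs and 1023982 bp over all bases.

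Solo LTRs stood before genes, where most of the sequence outside mRNAs also lies. Their midpoints lay upstream of the gene whose mRNA start was nearest in 193 of 212 cases, 91.0% (95% Wilson interval 86.4 to 94.2%), against 35.2% of all bases. Among the 196 solo LTRs outside mRNA records it was 182, 92.9% (88.4 to 95.7%), against 86.2% of the bases outside mRNA records. Measured between edges, the nearest mRNA start was 31 to 2998 bp away with a median of 216.5 bp, and the nearest mRNA end 0 to 6682 bp away with a median of 871.5 bp. The start was nearer than the end for 155 of 212, 73.1% (66.8 to 78.6%), against 52.4% of all bases. Outside mRNA records the midpoint was nearer a start for 153 of 196, 78.1% (71.8 to 83.3%), against 66.2% of the bases there. The medians to the start were alike on the chromosomes, at 195 bp on I, 260 bp on II and 208.5 bp on III.

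Midpoints allow a comparison with single bases, and they were concentrated in a narrow band. From 200 to 400 bp upstream of a start lay 104 of the 212 midpoints, 49.1%, against 6.34% of all bases, and 98 of the 196 outside mRNAs, 50%, against 19.0% of the bases outside mRNA records. From 400 to 600 bp upstream lay 37, and in the 200 bp just before the start 7. Of these 7, 6 were outside mRNAs, or 3.06% of the 196, against 27.5% of the bases outside mRNA records. Coding sequence was overlapped by 0 of the 212, and an mRNA record by 16. Among the 196 outside mRNAs, 62.8% of midpoints were within 500 bp of a start (55.8 to 69.2%), against 53.6% of the bases outside mRNA records. Within 500 bp of an mRNA end were 16.3% (11.8 to 22.1%), against 30.8% of those bases. A midpoint cannot lie closer to an mRNA it does not overlap than the distance from its middle to its edge, which a single base can, and no correction was made for this.

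**Figure D2:**
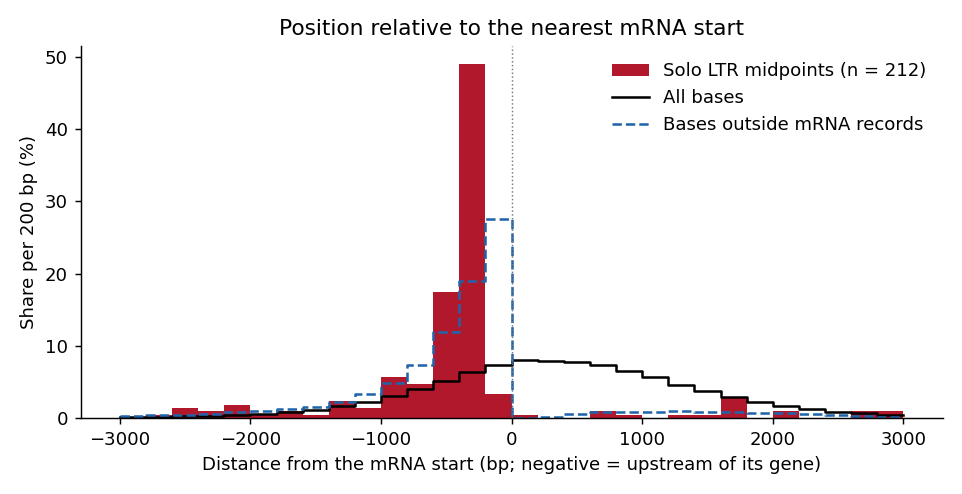
Share of solo LTR midpoints (red bars), of all bases of the 3 chromosomes (black line) and of the bases outside mRNA records (blue dashed line) per 200 bp of distance from the nearest mRNA start, in bp, with negative distances upstream of its gene. The bar from 200 to 400 bp upstream holds 49.1% of the 212 midpoints, where the black line stands at 6.34% and the blue line at 19.0%.

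The intervals that held solo LTRs were long and often flanked by genes transcribed away from each other. Between mRNAs, 99 of 196 solo LTRs (50.5%, 43.6 to 57.4%) were in divergent intervals, which make up 43.3% of the bases and 31.9% of the intervals between mRNAs. Tandem intervals, with both genes read in the same direction, held 88 (44.9%) against 45.8% of bases. Convergent intervals held 7 (3.57%, 1.74 to 7.19%) against 9.17% of bases and 13.6% of intervals. The 171 intervals with a solo LTR had a median length of 1287 bp, or 950 bp less the LTR bases, against 370 bp for the 3772 without one. In tandem intervals, whose ends are 1 mRNA start and 1 mRNA end, 54 of 88 midpoints were nearer the start (61.4%, 50.9 to 70.9%).

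**Figure D3:**
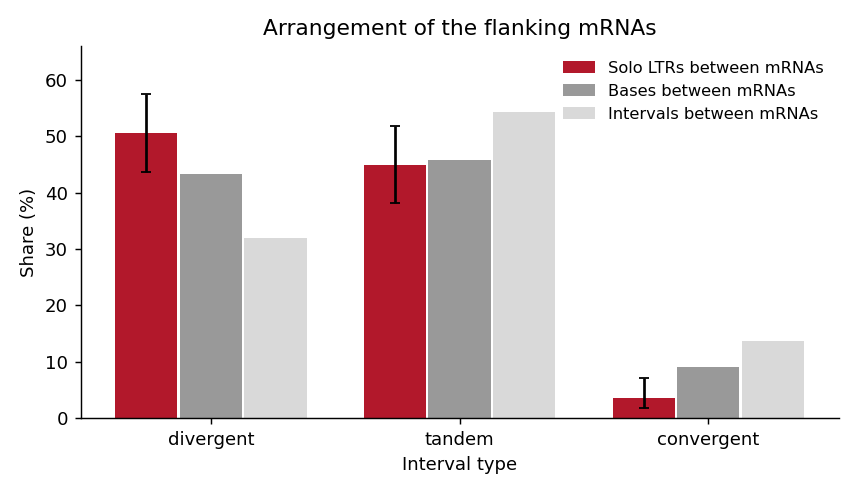
Share of the 196 solo LTRs between mRNAs (red, with 95% Wilson intervals as error bars), of the bases between mRNAs (dark grey) and of the intervals between mRNAs (light grey) by the arrangement of the flanking mRNAs. Divergent intervals hold 50.5% of the solo LTRs and 43.3% of the bases, and convergent intervals 3.57% and 9.17%.

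The orientation of solo LTRs gave little departure from even shares. On the strand of the gene with the nearest start were 115 of 212, 54.2% (47.5 to 60.8%), and among those within 1 kb of a start 93 of 177, 52.5%. In tandem intervals 51 of 88 were on the strand of the flanking genes, 58.0% (47.5 to 67.7%). Non-coding RNA genes overlapped 71 of the 212 solo LTRs (33.5%). They covered 20.6% of the bases in solo LTRs, against 54.4% of the bases outside mRNA records.

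Genes for tRNA, which mark the insertion sites of some retrotransposons of budding yeast, were not unusually near. The median distance to one was 46060 bp for solo LTRs, 36839 bp over all bases and 35569 bp for protein-coding genes. Within 1 kb of a tRNA gene lay 7 of 212, 3.30% (1.61 to 6.66%), against 2.21% of all bases, 6.45% of the bases outside mRNA records and 3.74% of protein-coding genes. The 3 closest were SPLTRA.16, 3 bp from SPATRNAVAL.01, SPLTRA.90, 289 bp from SPATRNATHR.05, and SPLTRC.33, 327 bp from SPCTRNAVAL.11. Of these SPLTRA.90 and SPLTRC.33 had equal flanks, TGTAG and TATTC. SPLTRA.16 was itself 428 bp from the start of lsd2, a lysine-specific demethylase gene. The solo LTRs farthest from any mRNA start were SPLTRC.9, SPLTRB.47 and SPLTRC.79. In that order, they lay 2998 bp from the start of dga1, 2938 bp from that of zfs1 and 2776 bp from that of SPCC569.01c. SPLTRC.9 was 542 bp from the gene wtf3, which has no mRNA record and so does not count here.

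Most wtf genes had a solo LTR close by. The wtf family includes meiotic drivers, which poison spores that do not inherit them, as well as members that are not drivers, and the family was named for its association with Tf LTRs, so the nearness was known. Of 25 wtf genes, 23 on III, 21 had a solo LTR within 1 kb (84%, 65.4 to 93.6%), against 316 of 5113 protein-coding genes (6.18%) and 102 of the 914 on III (11.2%). The median distance to the nearest solo LTR was 248 bp. In those 1-kb surroundings, 18 placements were before the start of a wtf gene, 11 after its end and 1 overlapped one. The closest were SPLTRC.54, which overlapped wtf20, SPLTRC.62 at 19 bp from wtf23, SPLTRC.44 at 38 bp from wtf14 and SPLTRC.35 at 48 bp from wtf11. The nearest solo LTR stood 2622 bp from wtf17, 11560 bp from wtf5, 21125 bp from wtf7 and 45441 bp from wtf8, the 4 wtf genes with none within 1 kb. The solo LTRs near wtf genes numbered 28, of which 26 were among the 74 of chromosome III. Without them III still had 19.6 per Mb, against 13.3 on I and 13.6 on II without theirs. Their median identity to the commonest LTR was 70.8%, and 2 of the 28 had equal flanks, against 41 of all 212.

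**Figure D4:**
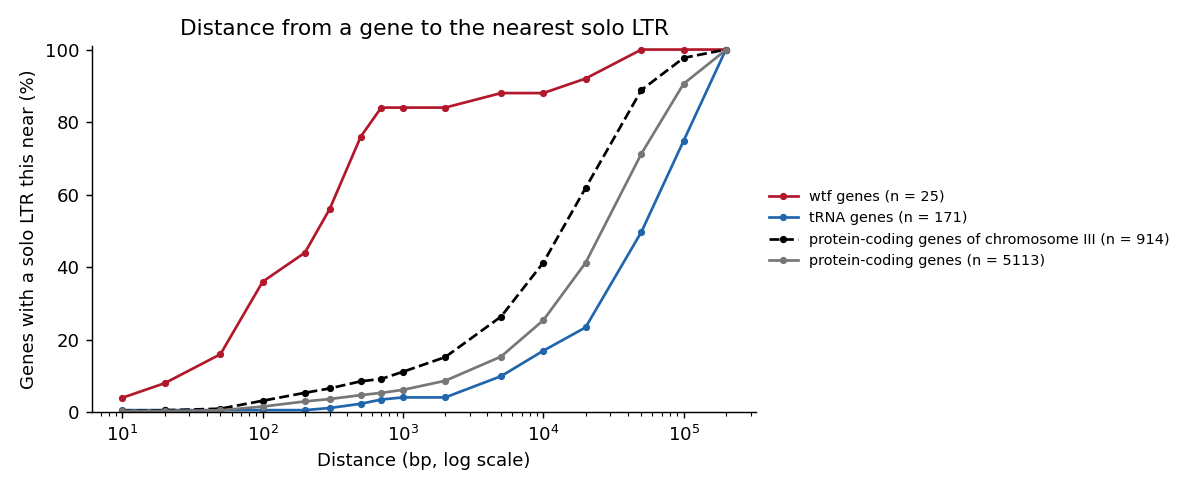
Cumulative share of genes (%) with a solo LTR within the distance on the horizontal axis (bp, log scale), for wtf genes (red), tRNA genes (blue), protein-coding genes of chromosome III (black, dashed) and all protein-coding genes (grey); points mark the distances evaluated. At 1000 bp the shares are 84%, 4.09%, 11.2% and 6.18%.

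Solo LTRs varied more in length than the LTRs of retrotransposons and were less like the commonest LTR. Solo LTRs ran between 75 and 412 bp with a median of 344 bp. Their commonest lengths were 349 bp (20 records), 358 bp (14) and 344 bp (12). The LTRs of retrotransposons ran between 280 and 356 bp, and 20 of 26 had 349 bp. The longest solo LTRs were SPLTRA.80 with 412 bp, SPLTRA.15 with 374 bp and, with 366 bp each, SPLTRC.25 and SPLTRB.36, and the shortest SPLTRC.31 with 75 bp, SPLTRB.51 with 80 bp and SPLTRA.10 with 89 bp. Identity to the commonest LTR had a median of 71.3% in solo LTRs, between 55.2 and 100%, and of 99.7% in the LTRs of retrotransposons. That LTR has 8 of its 12 copies in retrotransposons. Identity to it therefore measures distance from a Tf2 LTR, not variety among solo LTRs. Read on the strand that fitted worse, 4 solo LTRs described below scored 55.2 to 58.1%. Identities near this level are therefore no evidence of likeness. At least 95% identical were 29 of 212 solo LTRs (13.7%, 9.70 to 19.0%), against 23 of the 26 LTRs of retrotransposons. The 3 LTRs of retrotransposons below this were SPLTRB.58 of Tf2-11 with 83.3%, SPLTRA.46 of SPTF.4 with 80.3% and SPLTRC.11 of SPTF.8 with 60% identity. The GC content of solo LTRs had a median of 32.7%, against 36.1% for the chromosomes.

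Equal flanks went with intact ends. Of all solo LTRs, 41 (19.3%, 14.6 to 25.2%) had the same 5 bases on both sides, whereas 0.197% of genome positions have equal 5-base words 349 bp apart. Among the 73 solo LTRs that begin with TG and end with CA the number was 37 (50.7%, 39.5 to 61.8%), and among the other 139 it was 4 (2.88%, 1.12 to 7.17%). By length, 13 of the 14 solo LTRs of 358 bp had equal flanks, 12 of the 20 of 349 bp and 1 of the 12 of 344 bp. The identity of these length classes to the commonest LTR had medians of 85.3, 98.3 and 79.2%. Of the 26 LTRs of retrotransposons 0 had equal flanks singly, since their inner flanks lie inside the element. The repeated words were varied: ATAGT and GTTAA stood at 3 solo LTRs each and AACTA at 2.

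**Figure D5:**
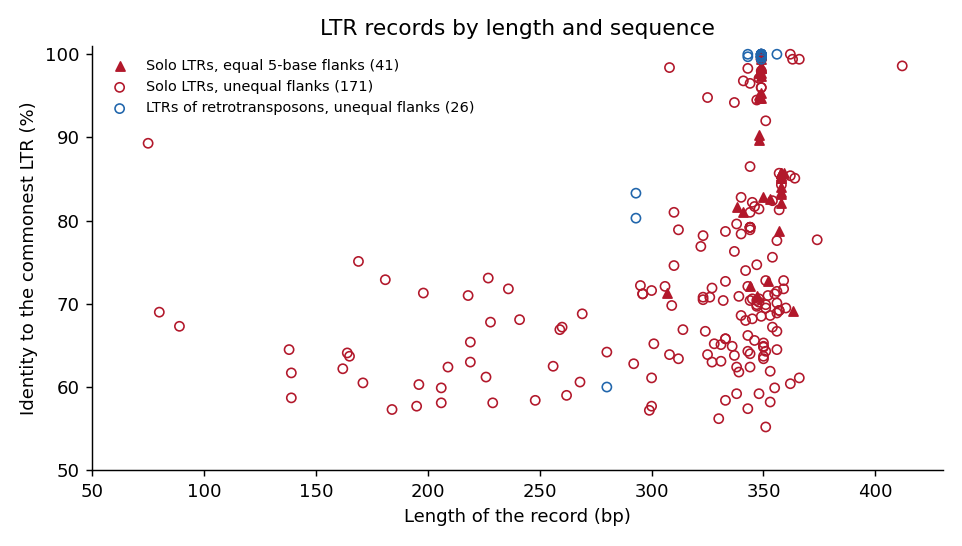
Length (bp) and identity to the commonest LTR (%) of each LTR record: solo LTRs with equal 5-base flanks (filled red triangles, 41) and with unequal flanks (open red circles, 171), and LTRs of retrotransposons (open blue circles, 26). Equal flanks gather at 349 bp near the top and at 358 bp near 85% identity, while short records have unequal flanks.

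The strand written in the record went against the sequence for a few solo LTRs. Read on the opposite strand, 4 of 212 were at least 10 percentage points more identical to the commonest LTR, and 0 of the 26 LTRs of retrotransposons were. SPLTRC.3 reached 99.4% on the opposite strand and 57.1% on its own, SPLTRC.7 98.6% and 55.2%, SPLTRB.35 97.1% and 58.1%, and SPLTRB.53 72.1% and 56.8%. The strand of a record whose identity is near the lower of these values on both strands cannot be judged in this way. SPLTRC.7 (III:114382-114730) is shown on the plus strand of its record and then on the other strand, with the flanks in capitals.
SPLTRC.7 left end, plus strand: TTGGTtgtaagctacgcagtttggtatctg
SPLTRC.7 left end, minus strand: ACCAAtgtcagcaatactacactacgctat
SPLTRC.7 right end, minus strand: cagataccaaactgcgtagcttacaACCAA
On the minus strand its ends are those of SPLTRA.77, and its flanks are equal.

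The second deposited annotation, which carries the Tetarr-ade6 reporter on a modified chromosome III, held 237 LTR records. All 26 LTRs of retrotransposons and 205 of 212 solo LTRs stood there with the same ends and strand, after the shift of each chromosome block. SPLTRA.90 had no counterpart, and SPLTRB.32 had 307 bp in the all-chromosomes annotation and 234 bp there. SPLTRB.15, SPLTRB.24, SPLTRB.36, SPLTRB.54 and SPLTRB.56 had the same ends on the opposite strand. For these 5 the strand of the all-chromosomes annotation aligned better to the commonest LTR, with 70.9 to 99.4% identity against 55.9 to 57.9%. SPLTRC.3, SPLTRC.7, SPLTRB.35 and SPLTRB.53 had the same strand in both annotations.

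Among the landmarks of the study, the reporter site was the nearest to a solo LTR. SPLTRC.7 lay 593 bp from the interval between SPNCRNA.6707 and new25, where RefSeq has ura4 and this annotation has no ura4 record. In the second annotation the Tetarr-ade6 record began 594 bp after the same LTR. Within 20 kb of that interval lay 3 solo LTRs. The native ade6 gene was 19614 bp from SPLTRC.34. The mating-type interval, between SPNCRNA.5505 and SPNCRNA.391, was 26341 bp from SPLTRB.33 and 159231 bp from the nearest retrotransposon. Of 18 genes for factors that act on Tf elements or on heterochromatin, clr4 stood 67 bp from SPLTRB.13, fft2, a chromatin remodeler gene, 135 bp from SPLTRC.8 and clr6, a histone deacetylase gene, 2293 bp from SPLTRB.17. Their median distance was 43573 bp, against 27328 bp for all protein-coding genes. The genes deleted in the study's strains lay farther off, with set1 at 30289 bp, swi6 at 38576 bp and mst2 at 48570 bp, apart from clr4.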

How the data were processed

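Both deposited files are genome annotations: start and end positions in bp per record, with no score field filled, no column per library and no depth. Per the file headers, PomBase is the source of the records on all chromosomes, and Geneious 7.1.5 wrote the annotation called tetarr6. The submitters' processing notes name the read trimmer Trimmomatic and the aligner BWA without versions, and the genome build is not given in the sources used here. The deposited positions fall under no measurement unit of the usual kind and were used as they stand. The planned test of H3K9me2 and H3K9me3 over the records had no values to run on, so no p-value is given.

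Members followed the rule given in the report. The members, the gene lists and the comparisons were chosen with earlier results of these data known. Distances run between the nearest edges unless a midpoint is named, an mRNA start or end inside a record counts as 0, and tRNA genes are those with systematic tRNA identifiers. Shares carry 95% Wilson intervals, which cover counting error only. All bases of I, II and III, bases outside mRNA records, protein-coding genes and intervals between mRNAs serve as background.

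All 238 LTRs matched an LTR record of RefSeq (ASM294v3) in order, length and strand, and sequences were read there at RefSeq's own positions, since positions of the all-chromosomes annotation are shifted on parts of II and III. Printed coordinates with sequences are RefSeq's. LTRs were aligned on both strands with Biopython (match 2, mismatch -2, gap opening -4, extension -1), the shorter sequence in full, and the better strand was used for identity. Distances and intervals were checked on simulated data. The simulated flank check compared planted repeats directly and did not run the step that reads flanks at RefSeq's positions, so it does not test that step.

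Named are all retrotransposons, the 3 longest (with a tie for the last place) and 3 shortest solo LTRs, those nearest to landmarks, the 3 closest to a tRNA gene and the 3 farthest from an mRNA start, the densest windows, the wtf genes with the smallest distances and 18 host genes. Other names (LTRs at element spacing, copies near ends, strand differences, wtf5, wtf7, wtf8 and wtf17) were chosen after their values were seen.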

Additional observations from a re-analysis of the deposited data

How the results depend on the processing

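No paired analysis was possible because neither annotation gives any value per library; for the same reason another pseudocount, leaving out replicates and a replicate block were not run. Over 29 results and 82 alternatives, 66 values stayed within the interval or within 1.5 times and 16 moved. Leaving out SPLTRA.31 and SPLTRA.81, the strand taken from the sequence, identical copies and mRNA records of Tf2 genes were alternatives added after the data were seen, as were those that leave out the surroundings of wtf genes or of chromosome ends. Without the solo LTRs near wtf genes, chromosome III had 19.6 per Mb. The median distance to an mRNA start was 376.5 bp from the midpoint and 367 bp to the coding sequence start, and the share nearer a start than an end was 82.5% with coding sequence. Away from the last 100 kb of each chromosome, 94.6% lay upstream of the gene with the nearest start. Within 5 kb of a tRNA gene lay 8.02%. Counting only overlap of at least 50% of the LTR, 3.30% overlapped an mRNA, and 0% overlapped coding sequence. Windows of 50 kb and 200 kb held no solo LTR in 53.8% and 10.9% of cases, against 27.6% at 100 kb, and the fullest 50-kb window had 6. Within 50 kb there was 1 solo LTR at centromeres, 25 at chromosome ends and 3 at the mating-type interval, and within 10 kb of ade6 there were 0. Counting overlap of at least 50% of either record, 99.5% of solo LTRs were found in the tetarr6 annotation. Precision rests on the annotation, and no statement here depends on sequencing depth.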
